A study of Mus musculus with 4 samples.

Results

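Collagen genes were examined in hearts of mice aged 8 weeks, and the difference between wild-type and Ctcf heterozygous hearts was measured for each of them. They were taken as the genes of the deposited table whose symbol is Col, a number, the letter a and a number, and 44 of the 55401 genes in the table met this rule. The table holds 4 RNA-seq libraries of heart tissue, 2 from wild-type and 2 from Ctcf heterozygous mice (Ctcf +/R567W), numbered 1 and 2 within a genotype. In the heterozygotes 1 of the Ctcf alleles encodes CTCF-R567W, introduced by CRISPR/Cas9 editing in C57BL/6N mice according to the methods, so the allele is present in all cells of the body. CTCF is a DNA-binding protein that organises chromatin into loops and domains. The question behind the comparison is which genes differ in the adult heart when 1 Ctcf allele carries the substitution. Neither the part of the heart, the sex nor the use of pooled animals is given by the labels, and they do not state that each library is a separate animal, so the p-values measure the spread between these samples, which may be technical. Where values are given per heart, each heart stands for 1 library.

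Collagens are the main structural proteins of the extracellular matrix. Each collagen molecule contains a triple helix, and its chains repeat the triplet glycine-X-Y, in which glycine fits into the centre of the helix. Fibrillar collagens assemble into the cross-banded fibrils that carry tension between heart muscle cells, while type IV collagen forms the sheet-like network of basement membranes around muscle cells and capillaries. Type VI collagen forms beaded filaments near cell surfaces. In the heart, fibroblasts make most of the fibrillar collagen, and endothelial, mural and muscle cells also contribute to basement membranes.

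The 44 genes comprised 11 fibrillar chains, 8 basement membrane chains (types IV, XV and XVIII), 6 chains of type VI, 9 fibril-associated chains, 4 network-forming or anchoring chains, 4 transmembrane chains and 2 others. This grouping follows textbook classes and was not built from the values of these hearts. Earlier results of these data were known when it was chosen. For 40 of the 44, a value above 0 was listed in every library, and Col10a1, the type X chain of growth-plate cartilage, was listed at 0 in all of them. A mean of at least 1 TPM (a relative transcript level per length, with the same total in each library) was the minimum for a test. That minimum was reached by 19 collagen genes, namely 8 fibrillar, 6 basement membrane, 3 type VI, 1 fibril-associated and 1 anchoring gene, and the other 25 stayed below it.

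The fibrillar chains stood apart in a feature of the encoded chain that the symbol rule did not use. Textbook classes reflect chain structure, so this describes the grouping and is no independent support for it. In the longest open reading frames of the GENCODE M21 transcripts, the longest unbroken run of glycine-X-Y triplets spanned 216 to 344 triplets in the 11 fibrillar chains, with a median of 338. It spanned 30 to 66 triplets in the basement membrane chains, 37 to 87 in the type VI chains and 32 to 113 in the fibril-associated chains. These last ranges overlapped with each other. Col3a1 had the longest run, 344 triplets, whereas that of Col1a1, with 338, equalled those of Col5a1 and Col11a2.

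Several collagen genes lie next to each other in the genome (mm10, GENCODE M21). Col4a1 and Col4a2 on chromosome 8 point away from each other and overlap by 22 bases at their starts. Col4a4 and Col4a3 on chromosome 1 are also divergent and are separated by 71 bases, and Col4a6 and Col4a5 on the X chromosome by 1308 bases. Col3a1 and Col5a2 on chromosome 1 point towards each other with 24614 bases between them, and Col6a2 and Col6a1 on chromosome 10 point the same way with 85161 bases between them. Neighbours of this kind are compared within each heart further on. The ratios of Col6a1 to Col6a2, Col3a1 to Col5a2 and Col4a3 to Col4a4 did not overlap between genotypes. Those of Col4a1 to Col4a2 and Col4a5 to Col4a6 overlapped, and no stretches are shown for them. A link between letters in front of genes and these ratios was not tested. The 4 stretches shown here lie in front of genes of the pairs without overlap, so their choice is not independent of the values. They are RefSeq bases of GRCm38.p6, the same build, without annotated exons, written 5′ to 3′ in the direction of the gene (of Col4a3 for the interval shared with Col4a4). Capitals mark the letters TATAAA in Col3a1, AGAGGGC in Col6a1 and the reverse complement of AGGTGGC in the interval. Col6a1 is shown for chr10:76726169-76726294 (minus strand), Col6a2 for chr10:76623631-76623880 (minus strand), Col3a1 for chr1:45311288-45311537 (plus strand) and the interval for chr1:82586850-82586920 (plus strand).
Col6a1: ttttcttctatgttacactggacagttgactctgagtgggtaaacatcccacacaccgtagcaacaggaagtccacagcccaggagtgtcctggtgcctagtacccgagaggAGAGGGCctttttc
Col6a2: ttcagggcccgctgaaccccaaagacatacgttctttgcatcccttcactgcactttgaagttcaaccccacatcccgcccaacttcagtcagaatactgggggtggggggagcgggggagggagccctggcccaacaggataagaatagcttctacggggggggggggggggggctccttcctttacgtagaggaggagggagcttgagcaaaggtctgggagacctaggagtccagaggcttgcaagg
Col3a1: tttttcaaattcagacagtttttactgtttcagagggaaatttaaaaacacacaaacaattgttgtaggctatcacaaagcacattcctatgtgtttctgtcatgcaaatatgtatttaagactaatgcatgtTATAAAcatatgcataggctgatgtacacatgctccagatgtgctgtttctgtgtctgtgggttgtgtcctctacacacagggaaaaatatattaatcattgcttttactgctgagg
Col4a4 to Col4a3: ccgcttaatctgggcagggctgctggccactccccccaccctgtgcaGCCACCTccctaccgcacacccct

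Promoter windows from 250 bases before to 50 bases after the start were held for 35 of the 44 collagen genes, 38 windows in all. On either strand, the letters TATAAA were found in 5 of these windows (Col3a1, Col10a1, Col11a2, Col13a1 and Col17a1), against 13.6% of the 32851 windows of all genes. The letters CCAAT were found in 13 windows, against 37.4% of all windows. The word AGAGGGC, the word AGATGGC, the word AGGGGGC or the word AGGTGGC, all forms of the core of the CTCF motif, occurred in 10 collagen windows, against 27.6% of all windows. A match describes the letters and is not a measured binding site. Of the 4 stretches printed above, that of Col6a2 held none of these words, and Col3a1 was the only one with TATAAA.

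Levels are given as scaled TPM, the deposited TPM divided by a median-of-ratios factor per library, because the TPM of 1 gene fall when those of others rise. The 4 factors ran from 0.818 to 1.26. Log2 fold changes, also written as log2 differences, are heterozygous minus wild-type on the log2(scaled TPM + 1) scale and are given ± their standard error. Mitochondrial genes took 61.1% to 68.6% of the TPM, and correlations between libraries over the tested genes ran from 0.966 to 0.981. Sequencing depth and the counting error of each value are unknown, as TPM do not carry them. Ctcf had 6.12 and 6.03 scaled TPM in wild-type hearts against 7.51 and 5.76 in the heterozygous hearts (log2 difference 0.10 ± 0.16 at an adjusted p of 0.814, limma), and TPM do not separate the alleles. Xist stood between 0.01 and 0.03 TPM and the Y-linked gene Ddx3y between 12.7 and 17.5 TPM in the 4 libraries, so all 4 carried Y-linked transcripts. In these whole-tissue samples, fewer cells of a type and less RNA per cell cannot be told apart.

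Collagen transcripts were a small part of the RNA of these hearts. Their summed TPM as deposited took 0.0160% and 0.0190% of each wild-type library and 0.0137% and 0.0126% of each heterozygous library. After scaling, the sum was 146.7 and 150.6 in wild-type hearts against 167.9 and 139.9 in the heterozygous hearts, so that the direction of the deposited sums did not hold and the heterozygous hearts lay on either side of both wild-type hearts (p = 1.0 in a two-sided exact permutation test). The smallest p that 2 hearts against 2 can give in this test is 0.33.

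**Figure D1:**
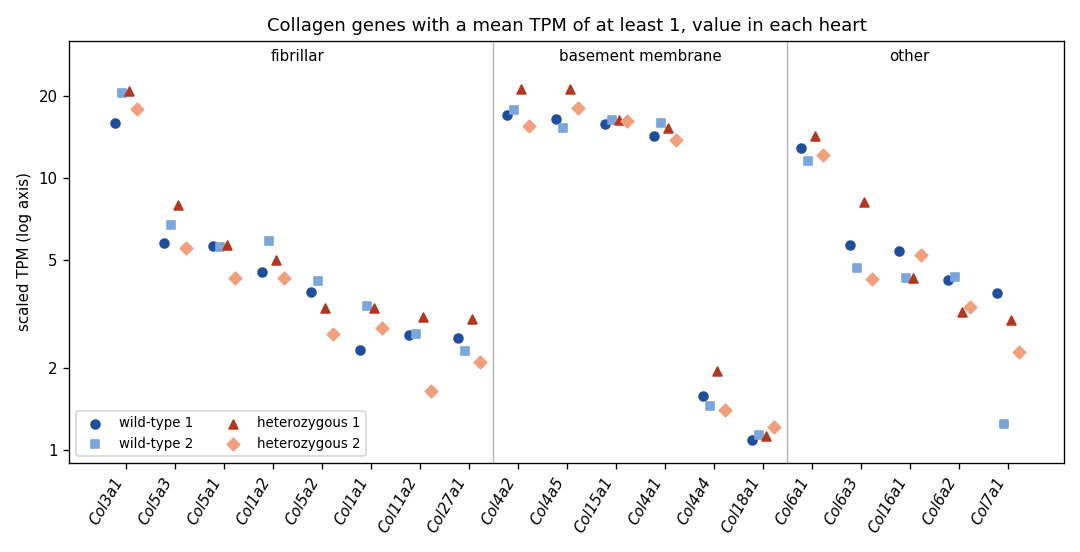
Scaled TPM (log axis) of the 19 collagen genes with a mean of at least 1 TPM, with 1 point for each heart (blue, wild-type 1 and 2; red, heterozygous 1 and 2), grouped into fibrillar, basement membrane and other collagens. Most genes show overlapping genotypes, and the points of heterozygous 1 lie above those of heterozygous 2 for 16 of the 19 genes.

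The most abundant collagen transcripts were a fibrillar chain and 4 basement membrane chains. Means over the 4 hearts were 18.8 scaled TPM for Col3a1, 17.9 for Col4a2, 17.8 for Col4a5, 16.1 for Col15a1 and 14.8 for Col4a1. The range of each gene over the 4 hearts overlapped with that of the next gene in the order. Within each of the 4 hearts, Col4a1 lay under Col3a1, Col4a2 and Col15a1. Col6a1 followed at 12.7, with a range that overlapped with that of Col4a1, and lay under Col4a1 in each heart. Against all tested genes, Col3a1 was higher than 86.7% and Col1a1, at 2.97 scaled TPM, higher than 36.9%.

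With calls made under an adjusted p of 0.05 and beyond 1.5-fold, no collagen gene was called different between the genotypes by limma on the log2(scaled TPM + 1) values, where 0.0199% of the 10036 tested genes were called (2 genes). Of the 19 collagen genes, 0 had an unadjusted p under 0.05, against 5.71% of all tested genes lower and 6.49% higher in heterozygous hearts. The smallest adjusted p of a collagen gene was 0.413, that of Col6a2. Estimates on this scale, which understates differences of low genes, ran from -0.32 for Col5a2 to 0.29 for Col4a5. The median over the 19 genes was 0.04, with 12 above and 7 below 0, and the median over all tested genes was -0.01. With TPM as deposited these medians were -0.34 for the collagens and -0.35 for all tested genes, so each value is to be read relative to that shift.

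The width of the intervals sets what these hearts could show. All 19 of the 95% intervals included 0, and 13 of them lay wholly within a 1.5-fold difference of scaled TPM + 1 in either direction. In scaled TPM without the added 1 the intervals of low genes are wider. For the other 6 (Col4a5, Col5a2, Col6a2, Col6a3, Col7a1 and Col11a2), a difference of more than 1.5-fold was within the interval. In 16 of the 19 genes the larger gap between replicates of a genotype was larger than the gap between the genotype means. The matching share of all tested genes is not given, so this count does not single out the collagens. Both heterozygous hearts lay below both wild-type hearts for 2 collagen genes (Col6a2 and Col5a2), against 23.3% of all tested genes. For 1 collagen gene (Col4a5) both lay above, against 23.7% of all tested genes.

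**Figure D2:**
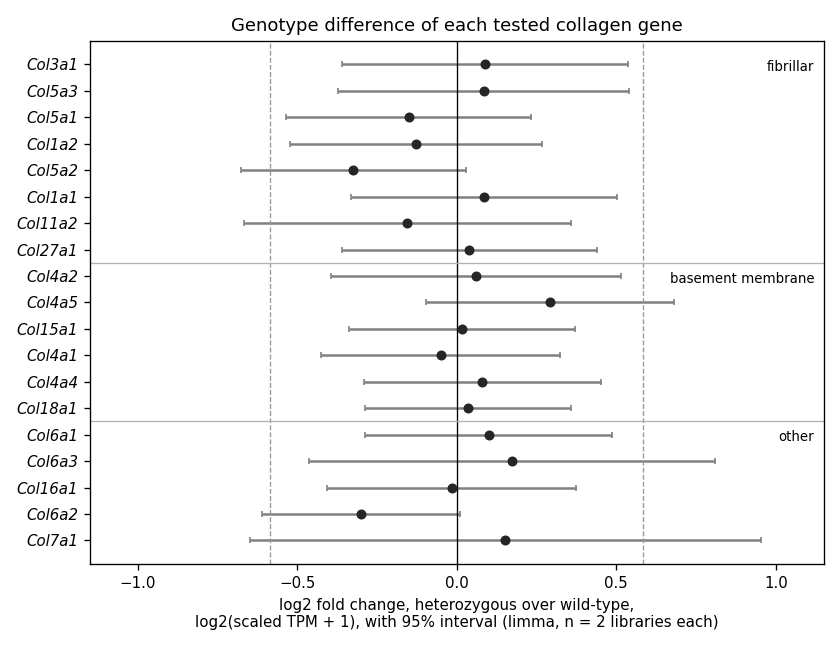
Log2 fold change (heterozygous over wild-type, on the log2(scaled TPM + 1) scale) of each of the 19 tested collagen genes, as a point with its 95% interval from limma (n = 2 libraries per genotype), and dashed lines at a 1.5-fold difference. Every interval includes 0, and the estimates run from -0.32 to 0.29.

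Fibrillar collagens had a median log2 fold change of -0.04 over 8 tested genes, with 4 above and 4 below 0. Col3a1, the single chain of type III collagen, had 15.9 and 20.6 scaled TPM in wild-type hearts against 20.9 and 17.9 in the heterozygous hearts. Its genotypes overlapped, at 18.3 ± 3.32 and 19.4 ± 2.07 (SD, n = 2 each), and the log2 difference was 0.09 with a standard error of 0.19 (adjusted p = 0.862 from limma). As a fold of scaled TPM + 1 the 95% interval ran from 0.780 to 1.45. Col3a1 lies on chromosome 1, from 45311538 to 45349706.

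Type I collagen, the stiffest and usually the most abundant fibril of the adult heart as protein, is built from the chains of Col1a1 and Col1a2. Col1a2 (chromosome 6, 4504814 to 4541544) had 4.52 and 5.86 scaled TPM in wild-type hearts against 5.003 and 4.28 in the heterozygous hearts, with an estimated log2 difference of -0.13 ± 0.17 at a limma adjusted p of 0.762. For Col1a1 (chromosome 11, 94936224 to 94953042) the values were 2.34 and 3.38 against 3.33 and 2.81, with an estimated log2 difference of 0.09 ± 0.17 at a limma adjusted p of 0.858. The lowest Col1a1 value belonged to a wild-type heart, and so did the highest. In every heart both type I mRNAs were lower than that of type III, by levels per transcript length.

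Type V collagen sits inside type I fibrils and limits their width, and its chains are encoded by Col5a1, Col5a2 and Col5a3. Col5a2 (chromosome 1, 45374321 to 45503282) had 3.82 and 4.19 scaled TPM in wild-type hearts against 3.34 and 2.68 in the heterozygous hearts. This gene had the lowest estimate among the collagens, -0.32 (standard error 0.15, unadjusted p = 0.0657, adjusted p = 0.425 from limma), and its genotypes did not overlap. Col5a1 (chromosome 2, 27886425 to 28039514) stood at 5.62 and 5.59 against 5.66 and 4.31, with an estimated log2 difference of -0.15 ± 0.16 at a limma adjusted p of 0.709. Only heterozygous 2 lay apart from the other 3 hearts for this gene. Col5a3 (chromosome 9, 20770050 to 20815067) stood at 5.77 and 6.72 against 7.96 and 5.56, with an estimated log2 difference of 0.08 ± 0.19 at a limma adjusted p of 0.873, with the heterozygous hearts on either side of the wild-type hearts.

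Col11a2, a type XI chain best known from cartilage (chromosome 17, 34039437 to 34066685), had 2.65 and 2.68 scaled TPM in wild-type hearts against 3.08 and 1.65 in the heterozygous hearts. The spread between the heterozygous hearts, 2.37 ± 1.01 (SD, n = 2), exceeded the difference from the wild-type mean, and the log2 difference was -0.15 with a standard error of 0.21 (adjusted p = 0.780 from limma). Markers of cartilage or valve interstitium were lower beside it, with a summed level of 0.763 and 1.01 scaled TPM in wild-type hearts against 0.624 and 0.830 in the heterozygous hearts over 7 genes, of which Matn1 and Matn3 were listed at 0 in all libraries and Acan did not exceed 0.03 TPM. Nearly all of this sum came from Comp, which is also in the list of activated fibroblast markers, at 0.662 and 0.873 against 0.538 and 0.720 scaled TPM. Col27a1, a fibrillar chain with a shorter triplet run of 217, had 2.58 and 2.32 against 3.03 and 2.11 scaled TPM and overlapping genotypes.

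Basement membrane collagens had a median log2 fold change of 0.05 over 6 tested genes, with 5 above and 1 below 0. The common network of type IV collagen is built from the chains of Col4a1 and Col4a2. Col4a2 (chromosome 8, 11312805 to 11449287) had 17.1 and 17.7 scaled TPM in wild-type hearts against 21.2 and 15.6 in the heterozygous hearts, with an estimated log2 difference of 0.06 ± 0.19 at a limma adjusted p of 0.910. Col4a1 (chromosome 8, 11198423 to 11312826) had 14.3 and 15.9 against 15.3 and 13.8, with an estimated log2 difference of -0.05 ± 0.16 at a limma adjusted p of 0.910. For Col4a2 the heterozygous hearts enclosed the wild-type hearts, and for Col4a1 the wild-type hearts and the heterozygous hearts overlapped.

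Col4a5 encodes a chain of the type IV network that also contains Col4a3 and Col4a4 products in kidney and that contains Col4a6 products in smooth muscle. It lies on the X chromosome (141475385 to 141689234). Its levels were 16.4 and 15.2 scaled TPM in wild-type hearts against 21.2 and 18.2 in the heterozygous hearts, which did not overlap. The log2 difference was 0.29 with a standard error of 0.16 (unadjusted p = 0.117, adjusted p = 0.483 from limma), with a 95% interval from 0.936 to 1.60 as a fold of scaled TPM + 1. With TPM as deposited the values were 17.9 and 19.2 against 17.3 and 16.4, so that the direction of this difference depends on the scaling. As a share of all collagen TPM, a measure that does not depend on scaling, Col4a5 took 11.2% and 10.1% in wild-type hearts against 12.6% and 13.0% in the heterozygous hearts (p = 0.33 in a two-sided exact permutation test).

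Of the remaining basement membrane genes, Col15a1 encodes a proteoglycan collagen of muscle and capillary basement membranes (chromosome 4, 47208161 to 47313167). It had 15.8 and 16.3 scaled TPM in wild-type hearts against 16.3 and 16.2 in the heterozygous hearts, a log2 difference of 0.02 ± 0.15 at an adjusted p of 0.971 (limma), and the 4 hearts were closer together than for the other 5 collagen genes with means above 10. Col4a4 (chromosome 1, 82448423 to 82586849) had 1.59 and 1.46 against 1.96 and 1.41, with an estimated log2 difference of 0.08 ± 0.16 at a limma adjusted p of 0.852. Col18a1, whose product releases the fragment endostatin, had 1.09 and 1.14 against 1.13 and 1.22 scaled TPM, near the minimum for a test.

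Type VI collagen is assembled from the chains of Col6a1, Col6a2 and, in most tissues, Col6a3. Col6a1 (chromosome 10, 76708792 to 76726168) had 12.9 and 11.6 scaled TPM in wild-type hearts against 14.3 and 12.1 in the heterozygous hearts, with an estimated log2 difference of 0.10 ± 0.16 at a limma adjusted p of 0.813. Col6a3 (chromosome 1, 90765923 to 90843971) had 5.70 and 4.67 against 8.17 and 4.26, with an estimated log2 difference of 0.17 ± 0.27 at a limma adjusted p of 0.804. For both genes heterozygous 1 was the highest heart, and for Col6a3 heterozygous 2 was the lowest.

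Col6a2 had the opposite sign to the other tested type VI chains. Its levels (chromosome 10, 76595762 to 76623630) were 4.24 and 4.33 scaled TPM in wild-type hearts against 3.23 and 3.35 in the heterozygous hearts. The replicates of each genotype lay close together, at 4.28 ± 0.0625 and 3.29 ± 0.0885 (SD, n = 2 each), and the genotypes did not overlap. At a log2 difference of -0.30 ± 0.13 (unadjusted p = 0.0568, adjusted p = 0.413 from limma) the gene had the smallest p of all collagens, and it did not pass the threshold. Its estimate, like that of Col5a2, stayed below 0 under every alternative in which the gene was tested. This adds no support, as neither gene had overlapping genotypes, so leaving out a heart could hardly turn the sign. The alternatives without median-of-ratios scaling included some that lowered the estimates of all genes, and other eBayes settings left the estimates unchanged. Of the type VI chains below the minimum for a test, Col6a6 had 0.65 and 0.90 TPM as deposited in wild-type hearts against 0.48 and 0.43 in the heterozygous hearts (unadjusted p = 0.342 from limma with no filter on low values), and Col6a4 and Col6a5 did not exceed 0.14 TPM.

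Col16a1, a fibril-associated collagen (chromosome 4, 130047840 to 130099283), had 5.38 and 4.29 scaled TPM in wild-type hearts against 4.31 and 5.23 in the heterozygous hearts, with an estimated log2 difference of -0.02 ± 0.16 at a limma adjusted p of 0.974. Col7a1, the chain of anchoring fibrils in skin, had 3.79 and 1.25 against 3.02 and 2.30 scaled TPM. Its wild-type hearts differed by more than those of any other tested collagen gene in proportion to their mean, at 2.52 ± 1.80 (SD, n = 2), and its standard error of 0.34 was the largest among the 19.

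The heterozygous hearts differed from each other in a common direction. Heterozygous 1 was above heterozygous 2 for 16 of the 19 tested collagen genes and for 8 of the 8 fibrillar ones, against 48.7% of all tested genes. Wild-type 2 was above wild-type 1 for 11 of the 19 collagen genes, for 6 of the 8 fibrillar ones and for 51.6% of all tested genes. Left out in turn, heterozygous 1 and heterozygous 2 moved the median of the 19 collagen genes to -0.12 and 0.18, so the sign of that median rests on these single hearts. The sum of the fibroblast markers did not follow the order of the heterozygous hearts. Over 10 genes it was 146.8 and 192.0 scaled TPM in wild-type hearts against 118.3 and 148.5 in the heterozygous hearts. It was lowest in heterozygous 1, and Gsn and Dcn made up most of it. Pdgfra (2.13 and 1.37 in heterozygous 1 and 2) and Ddr2 (2.40 and 2.18) did follow that order, and the other fibroblast markers did not. Mitochondrial genes took 68.6% of the TPM in heterozygous 1 and 62.6% in heterozygous 2. The part of either in the spread of the collagens was not tested.

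The summed levels of the other cell markers overlapped between genotypes, except that of mural cells, which was lower in both heterozygous hearts. Sums are weighted to the most abundant genes, so counts of single markers are given beside them. Endothelial markers summed to 681.6 and 722.6 scaled TPM in wild-type hearts against 631.4 and 725.8 in the heterozygous hearts over 10 genes, and mural markers to 91.7 and 85.0 against 69.9 and 84.2 over 8 genes. Of the 8 mural markers, Acta2 and Myh11 were lower and Cspg4 was higher in both heterozygous hearts, and none was called. Without Acta2 the sums were 67.5 and 68.0 against 58.6 and 67.7. Heterozygous 2 then lay between the wild-type hearts, and heterozygous 1 stayed below them. Macrophage markers summed to 28.3 and 28.8 against 24.3 and 32.5 over 8 genes, and Schwann cell markers to 4.46 and 5.45 against 5.60 and 3.77 over 6 genes. Markers of activated fibroblasts summed to 22.2 and 21.1 against 22.6 and 21.9 over 8 genes. In proportion, these last values were the closest to each other of all the marker lists. The sum hides members that went opposite ways. Of the 4 tested, Postn was lower in both heterozygous hearts, at 12.5 and 12.1 against 10.3 and 10.7 scaled TPM. Fap was higher in both, at 3.18 and 3.37 against 5.16 and 4.22 (log2 fold change 0.41, adjusted p = 0.372 from limma). Cardiomyocyte markers, the defining genes of the tissue, summed to 24890 and 23380 against 20060 and 23970 over 8 genes. Both heterozygous hearts lay below both wild-type hearts for 4 of these (Actc1, Pln, Myl2 and Myl3) and above for 0. Their median log2 fold change was -0.28. The same counts were 4 below and 1 above for the 10 fibroblast markers (median -0.26), and 3 and 2 for the 10 endothelial markers. For the 7 tested macrophage markers they were 1 and 0. Over all tested genes the shares were 23.3% below and 23.7% above, and none of these markers was called. The part of these markers in the collagen levels was not tested.

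Shares within a heart do not depend on the scaling between libraries. Basement membrane collagens took the largest share of the collagen TPM, 45.9% and 45.6% in wild-type hearts against 46.8% and 48.3% in the heterozygous hearts. The genotypes did not overlap, and the difference was 1.78 percentage points (p = 0.33 in a two-sided exact permutation test, its lowest value here, and 1.0 after adjustment over the 5 classes). Fibrillar collagens took 29.6% and 34.2% against 31.2% and 29.6%, and type VI collagen 16.0% and 14.2% against 15.8% and 14.5%. Fibril-associated collagens took 5.01% and 4.18% against 3.67% and 5.04%, and the remaining classes 3.51% and 1.87% against 2.64% and 2.62%. For these 4 classes the genotypes overlapped (p = 1.0 each in the exact permutation test).

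**Figure D3:**
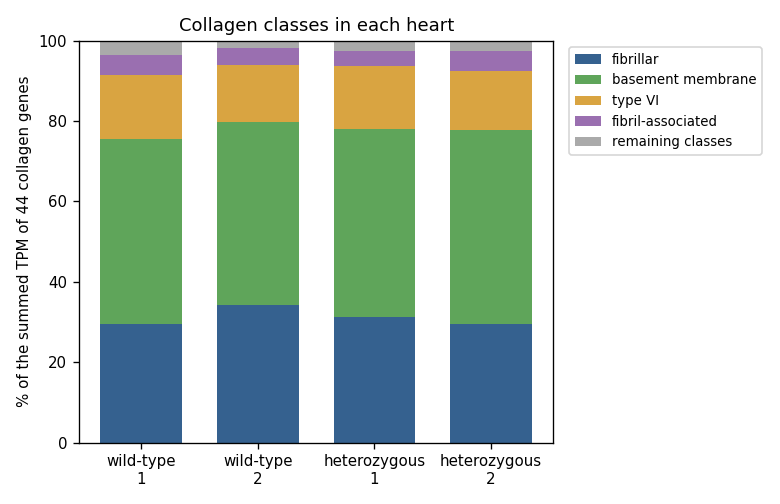
Share of each collagen class in the summed TPM of the 44 collagen genes (y axis, %), with 1 stacked bar for each heart. Basement membrane collagens hold 45.6% to 48.3% and fibrillar collagens 29.6% to 34.2% of the collagen TPM.

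Ratios between pairs of collagen genes, most of them chains of the same collagen type, were compared within each heart as well. The ratio of Col1a1 to Col1a2 was 0.518 and 0.577 in wild-type hearts against 0.665 and 0.656 in the heterozygous hearts, 1.21-fold higher without overlap. In every heart Col1a1 was thus the lower of the pair. Col6a1 to Col6a2 was 3.05 and 2.68 against 4.44 and 3.62, 1.41-fold higher without overlap. Col3a1 to Col1a1 overlapped, at 6.79 and 6.10 against 6.27 and 6.38, and so did Col4a1 to Col4a2, at 0.837 and 0.896 against 0.720 and 0.886. None of these can reach a p under 0.33 in the exact permutation test with 2 hearts against 2, and adjusted over the 9 ratios computed the p-values were at least 0.6.

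The other 5 ratios were chosen after the values were seen and are given as a description. Col4a3 to Col4a4, the divergent pair on chromosome 1, was 0.422 and 0.380 in wild-type hearts against 0.575 and 0.575 in the heterozygous hearts. Col3a1 to Col5a2, the convergent pair on the same chromosome, was 4.16 and 4.92 against 6.25 and 6.69. Col5a1 to Col5a2 was 1.47 and 1.33 against 1.70 and 1.61. In each of these 3 the heterozygous hearts lay above the wild-type hearts. Col6a3 to Col6a2 (1.34 and 1.08 against 2.53 and 1.27) and Col4a5 to Col4a6 (49.7 and 45.7 against 69.3 and 46.9) overlapped between genotypes. Col4a3 lies below 1 TPM and shares 5.65% of its exonic bases with an antisense gene model, from which its reads cannot be told apart if strand was not used. Among the 19 tested collagen genes, no single other gene model shared more than 1.44% of the exonic bases (Col3a1).

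**Figure D4:**
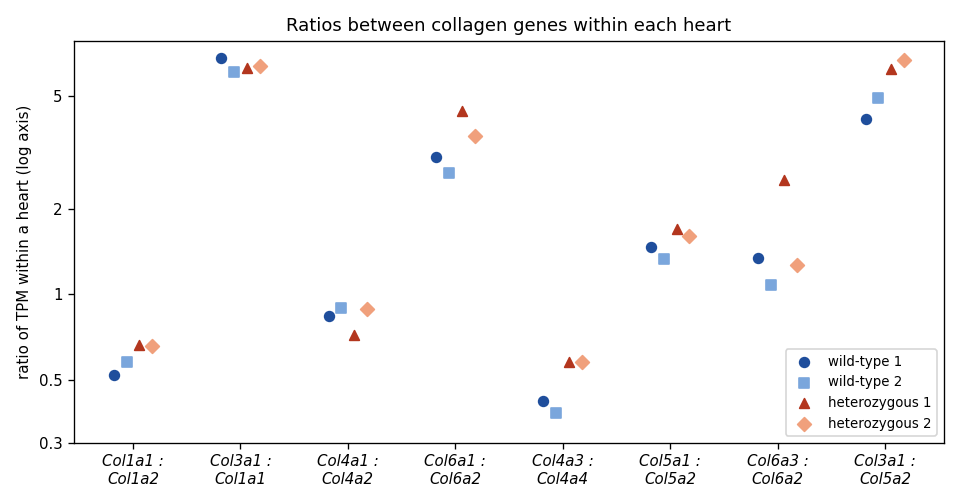
Ratio of TPM between pairs of collagen genes within each heart (log axis), with 1 point for each heart (blue, wild-type; red, heterozygous), the first 4 pairs fixed with the tests and the last 4 chosen after the values were seen. Points of the heterozygous hearts lie above those of the wild-type hearts for 5 of the 8 pairs drawn. Among them is Col6a1 to Col6a2 with 4.44 and 3.62 against 3.05 and 2.68. Of these 5, Col4a3 to Col4a4, Col5a1 to Col5a2 and Col3a1 to Col5a2 were chosen after the values were seen, and the latter pairs share Col5a2. Col4a5 to Col4a6, which overlapped between genotypes, is not drawn, so the count is a description only.

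The 25 genes below the minimum for a test ran up to 0.92 TPM, in a table rounded to 0.01 TPM. The highest by mean over the 4 libraries were Col20a1 at 0.775 TPM, Col4a3 at 0.77, Col6a6 at 0.615, the network-forming chain Col8a1 at 0.5, Col9a3 at 0.465, Col23a1 at 0.41, Col14a1 at 0.38 and Col4a6 at 0.345. Col2a1, Col6a4, Col6a5, Col8a2, Col9a1, Col9a2, Col10a1, Col11a1, Col17a1, Col19a1, Col22a1 and Col24a1 stayed at or under 0.15 TPM in every library, and Col12a1, Col13a1, Col25a1, Col26a1 and Col28a1 lay between 0.06 and 0.24 TPM. Col22a1, a fibril-associated chain found at tissue junctions such as those of muscle and tendon, had 0.15 and 0.12 TPM in wild-type hearts against 0.01 and 0.01 in the heterozygous hearts, as deposited. Col24a1 had 0.15 and 0.08 against 0.02 and 0.03, and Col9a3 0.70 and 0.52 against 0.29 and 0.35. Col9a3 shares 6.07% of its exonic bases with Tcfl5 on the opposite strand. Reads from that part cannot be told apart if strand was not used. These deposited values also carry the downward shift of all tested genes (median log2 fold change -0.35). In a fit with no filter on low values, Col22a1 had an unadjusted p of 0.00699 and an adjusted p of 0.520 from limma, and no collagen gene was called. Col13a1, a transmembrane chain, had 0.15 and 0.20 TPM as deposited against 0.19 and 0.24, which overlapped. The same limma fit used scaled TPM, at 0.138 and 0.159 in wild-type hearts against 0.232 and 0.266 in the heterozygous hearts (unadjusted p = 0.0459, adjusted p = 0.570). Of the chains best known from cartilage, Col2a1 stood at 0.01 to 0.09 TPM and Col11a1 at 0 to 0.03 TPM, below Col9a3 and Col11a2 in every library.

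Genes that make, process, bind or degrade collagens were described beside the chains, in 7 lists of 102 genes of which 68 were tested. None was called. Before adjustment, 2 genes lower and 4 genes higher in heterozygous hearts had a p under 0.05, and both heterozygous hearts lay below both wild-type hearts for 19 genes and above for 14. The smallest adjusted p over the lists was 0.335 and the median log2 fold change was -0.06. The counts are to be read beside the shares of all tested genes given above.

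Synthesis in the endoplasmic reticulum was covered by 17 tested genes, with a median log2 fold change of -0.08, 1 lower and 2 higher at an unadjusted p under 0.05. Plod3, a lysyl hydroxylase that also adds glucose to collagen hydroxylysines, had 3.99 and 4.68 scaled TPM in wild-type hearts against 8.37 and 6.42 in the heterozygous hearts (log2 difference 0.65 ± 0.17 at an adjusted p of 0.335, limma). Colgalt1, the galactosyltransferase that acts just before it on the same residues, had 9.58 and 8.39 against 5.08 and 6.21 (log2 difference -0.59 ± 0.16 at an adjusted p of 0.335, limma). Fkbp10, a collagen chaperone, had 5.86 and 6.398 against 8.32 and 7.97 (log2 fold change 0.36, adjusted p = 0.389). For all 3 the genotypes did not overlap.

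Processing and cross-linking genes had a median of 0.19 over 5 tested genes, 0 of which had an unadjusted p under 0.05. Bmp1, which cleaves the C-terminal propeptide of fibrillar procollagens, had 20.3 and 19.9 scaled TPM in wild-type hearts against 26.9 and 23.0 in the heterozygous hearts (log2 fold change 0.29, adjusted p = 0.488 from limma). Tgm2, a transglutaminase, had 8.75 and 8.86 against 9.63 and 10.8, and Loxl3, a lysyl oxidase, 3.17 and 3.20 against 4.87 and 3.30. The heterozygous hearts were higher in each of these without overlap, at adjusted p of 0.599 and 0.554 for Tgm2 and Loxl3.

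Fibril partners had a median log2 fold change of -0.22 over 9 tested genes, with both heterozygous hearts below both wild-type hearts for 6 of them and above for 1, and 1 gene (Lum) lower at an unadjusted p under 0.05. Dcn, the small proteoglycan decorin that coats type I fibrils, had 29.7 and 45.1 scaled TPM in wild-type hearts against 20.7 and 29.0 in the heterozygous hearts (log2 difference -0.56 ± 0.26 at an adjusted p of 0.429, limma). Lum, lumican, had 2.07 and 2.83 against 1.505 and 1.74 (log2 fold change -0.39, adjusted p = 0.405), and Ogn, osteoglycin, 5.77 and 6.12 against 3.83 and 4.97 (log2 fold change -0.37, adjusted p = 0.412). Dcn and Lum are also in the list of fibroblast markers described above, so the lists share these values.

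Basement membrane partners had a median of -0.0026 over 11 tested genes, with 1 gene higher at an unadjusted p under 0.05. That gene was Agrn, the heparan sulfate proteoglycan agrin, with 56.0 and 54.9 scaled TPM in wild-type hearts against 80.6 and 75.5 in the heterozygous hearts (log2 difference 0.49 ± 0.17 at an adjusted p of 0.363, limma). Nid2, a nidogen that links laminin to type IV collagen, had 5.46 and 5.25 against 8.48 and 6.22 (log2 fold change 0.38, adjusted p = 0.425). Lamc1, the laminin gamma 1 chain, had 13.4 and 14.9 against 10.6 and 11.6 (log2 fold change -0.32, adjusted p = 0.431). Partners of the same sheet thus stood on both sides of 0, and none passed the threshold.

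Breakdown genes, among them the inhibitors Timp1, Timp2, Timp3 and Timp4, had a median of -0.23 over 7 tested genes. As inhibitors and metalloproteinases are pooled, this median gives no direction of breakdown. Receptor genes had a median of -0.04 over 7 tested genes, and 0 genes in either list had an unadjusted p under 0.05. Timp3, a matrix-bound inhibitor of metalloproteinases, had 2.14 and 2.51 scaled TPM in wild-type hearts against 1.88 and 0.996 in the heterozygous hearts (log2 difference -0.47 ± 0.20 at an adjusted p of 0.412, limma). Mmp15, a membrane-type metalloproteinase, had 4.68 and 4.90 against 3.74 and 3.94 (log2 fold change -0.26, adjusted p = 0.461), and Timp4 1.70 and 1.53 against 1.41 and 1.05 (log2 fold change -0.23, adjusted p = 0.525). Among the receptors, Itgb1, the beta chain shared by the collagen-binding integrins, had 9.42 and 13.4 against 7.51 and 8.42 (log2 difference -0.45 ± 0.19 at an adjusted p of 0.412, limma). Dag1, dystroglycan, had 4.55 and 5.33 against 4.49 and 3.59 (adjusted p = 0.540), and Itga1 1.86 and 2.06 against 2.01 and 1.65 (adjusted p = 0.860).

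Genes of transforming growth factor beta signalling, a main inducer of fibrillar collagen transcription, had a median of 0.03 over 12 tested genes, with 1 higher at an unadjusted p under 0.05. Smad3, which carries the signal to the nucleus, had 2.36 and 2.48 scaled TPM in wild-type hearts against 3.60 and 3.18 in the heterozygous hearts (log2 difference 0.36 ± 0.13 at an adjusted p of 0.379, limma). Ltbp3, which binds the latent ligand, had 21.3 and 20.6 against 26.6 and 26.99 (log2 fold change 0.34, adjusted p = 0.425). Tgfbr3, a co-receptor, had 1.30 and 1.24 against 1.08 and 0.819 (log2 fold change -0.22, adjusted p = 0.536). In all 3, named for their smallest p in the list, the genotypes did not overlap. Over the 12 tested genes, both heterozygous hearts lay below both wild-type hearts for 3 and above for 2. The genotypes overlapped for Col1a1, Col1a2 and Col3a1, which this pathway is known to induce. A link between the pathway genes and the collagens was not tested.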

How the data were processed

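Per the labels, polyA RNA from heart tissue of mice aged 8 weeks was made into 4 libraries with the VAHTS Universal V8 kit. The authors trimmed reads with Trim Galore, aligned them to mm10 with STAR, quantified genes with RSEM and deposited TPM per gene, rounded to 2 decimals. The annotation release and the use of strand are not given in the sources used here. Read counts were not used here, so the DESeq2 test of the methods was not run.

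Samples were grouped by the genotype in the labels. TPM were divided by median-of-ratios factors over 9970 genes (mean TPM of at least 1 and above 0 in every library), 1 was added and log2 was taken. The 10036 genes with a mean of at least 1 TPM were fitted with limma 3.58.1 in R 4.3.3 (lmFit, eBayes with trend, two-sided, Benjamini-Hochberg adjustment over all of them), and calls needed both an adjusted p below 0.05 and more than a 1.5-fold difference. The prior had 4.64 degrees of freedom. Shares and ratios were compared with exact permutation tests in scipy 1.17.1. Tables and plots were made with Python 3.11.15, pandas 2.3.3 and matplotlib 3.10.9. The fit was tested on simulated data with planted changes far larger than the collagen estimates. That test does not show what the fit can detect at their size. Of the gene identifiers, 55141 matched GENCODE M21 without their version number.

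The members, classes, partner and marker lists were chosen with earlier results of these data known. Every collagen gene with a mean of at least 1 TPM is named, and of each partner list the 3 genes with the smallest p. The genes named among the low collagens were chosen after their values were seen. Alternatives were other pseudocounts, filters, scalings and eBayes settings, a replicate block, other call thresholds and each library left out in turn.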

Additional observations from a re-analysis of the deposited data

How the results depend on the processing

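No collagen gene was called under any alternative run (limma), including a call with no fold bound and a call beyond 2-fold at an adjusted p under 0.01, while the smallest adjusted p of a tested collagen gene with all libraries lay between 0.0752 and 0.571. Before adjustment, at most 5 collagen genes lower (TPM as deposited) and at most 2 higher (without heterozygous 2) had a p under 0.05. The size and sign of the estimates depended on the scaling and on single hearts. For the deposited TPM without scaling, and for TPM rescaled after removal of mt- genes, the median of all tested genes was -0.35 and -0.31, against -0.0047 after median-of-ratios scaling. In the same order the medians of the collagen genes were -0.34 and -0.24 over all 19, -0.41 and -0.35 over fibrillar, -0.28 and -0.23 over basement membrane and -0.31 and -0.22 over the other collagens. Genes with both heterozygous hearts below both wild-type hearts then numbered 15 and 10, and those with both above 0 and 0. The matching shares of all tested genes under these scalings are not given, so these counts do not single out the collagens. Under these scalings 12 estimates turned below 0, with values of -0.40 and -0.31 for Col15a1, -0.20 and -0.20 for Col18a1, -0.25 and -0.19 for Col1a1, -0.28 and -0.24 for Col27a1, -0.34 and -0.24 for Col3a1, -0.36 and -0.27 for Col4a2, -0.20 and -0.17 for Col4a4, -0.13 and -0.024 for Col4a5, -0.30 and -0.23 for Col5a3, -0.31 and -0.22 for Col6a1, -0.21 and -0.13 for Col6a3, -0.15 and -0.067 for Col7a1. This follows the shift of all genes. Removal of the genes that hold at least 1% of TPM gave 2 genes with both hearts above, a basement membrane median of 0.11 and an estimate of 0.030 for Col16a1. Quantile normalization gave 2 genes with both above and -0.0065 for Col15a1. Without a filter on low values, where 43 genes were tested, 10 genes lay below and 6 above, and at a mean TPM of at least 5, 0 lay below. Shares of all tested genes are not given for these alternatives or with a library left out. Such counts therefore cannot be read as a result about the collagens.

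Leaving out each library in turn gave 3 to 11 genes below and 2 to 10 above, since a single heart separates more easily. The lone heart of a genotype is assumed to vary like those of the other. The medians ran from -0.12 to 0.18 over all tested collagens, -0.18 to 0.17 over fibrillar, -0.029 to 0.12 over basement membrane and -0.15 to 0.21 over other collagens. The low ends of the first 3 came without heterozygous 1 and the high ends without heterozygous 2. Estimates that changed sign ran from -0.48 to 0.16 for Col11a2, -0.0089 to 0.042 for Col15a1, -0.15 to 0.12 for Col16a1, -0.11 to 0.28 for Col1a1, -0.28 to 0.030 for Col1a2, -0.15 to 0.23 for Col27a1, -0.089 to 0.27 for Col3a1, -0.12 to 0.022 for Col4a1, -0.15 to 0.27 for Col4a2, -0.070 to 0.23 for Col4a4, -0.32 to 0.011 for Col5a1, -0.14 to 0.31 for Col5a3, -0.010 to 0.21 for Col6a1, -0.23 to 0.57 for Col6a3, -0.38 to 0.69 for Col7a1. For the basement membrane share the difference stayed between 1.03 and 2.54 percentage points. Other pseudocounts and eBayes settings changed no sign.

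With the replicate number as a block, 0 collagen genes were called, as without it, the smallest adjusted p was 0.376 (Col6a2), and no other call on a collagen gene changed. Over all tested genes the calls went from 2 to 10. Same-numbered samples share only a number, since with 2 pairs the correlation of their deviations (0.101) does not show pairing. The unknown read depth limits what can be said of the collagen genes below 1 TPM.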
